A study of Rattus norvegicus with 10 samples.

Results

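Ribosome biogenesis was examined in left ventricles of rats whose hearts had taken up transferred genes 3 days before, through 48 genes that act in the nucleolus, from the transcription factor gene Myc to late assembly factors. The 48 were listed by name, and a gene counted as measured where at least 1 probe set carried its symbol alone. That held for 47 of the 48, of 14217 genes named on the array, and the brightest of a gene's probe sets over the 10 arrays stood for it. The exception was Npm1 (nucleophosmin), for which no value is given. The 47 genes had 60 probe sets, and all 47 chosen ones were bright enough to be tested.

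The p38 group of 5 samples received 2 kinases: MKK3bE, an always-active MKK3 (the kinase upstream of p38), and wild-type p38α, a mitogen-activated protein kinase. The LacZ group of 5 samples received the bacterial β-galactosidase gene and so shared the procedure but not the kinases. All rats weighed 250 to 300 g, and the labels of 9 of the 10 arrays describe male Sprague-Dawley rats. The labels name no vector or promoter, and say neither which cells took up the genes nor whether the 10 arrays stand for 10 animals; p-values then rest on the spread among these arrays only. Each array measured total RNA of ventricular tissue, where fewer cells of a type and less RNA per cell cannot be told apart.

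Values are normalized log2 signals, on which a difference of 1 is a doubling, and they compare a gene between arrays, not genes with each other. Fold changes are p38 over LacZ. The error given with a log2 fold change is the standard error in a limma fit over all tested probe sets, n = 5 arrays per group, and a gene is said to have risen or fallen where its Benjamini-Hochberg adjusted p in that fit was below 0.05. Of 13 cardiomyocyte marker genes, all above the brightness limit, 11 did not pass the test and Mybpc3 and Ryr2 fell. The 2 falls were 15.4% of the 13, beside 6.23% of all named genes tested, and 11 of the 13 log2 fold changes were below 0. The measured macrophage, fibroblast and endothelial markers all cleared the brightness limit as well, so clearing it does not test the tissue label.

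Ribosomes are made in the nucleolus. RNA polymerase I transcribes a long precursor RNA, small nucleolar ribonucleoproteins (snoRNPs) modify it at chosen bases, and a succession of assembly factors cuts, folds and packs it with ribosomal proteins into a small and a large subunit. In the heart, growth of the muscle mass is known to go with increased ribosome production, and MYC is a known activator of many genes of this pathway.

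In p38 hearts 21 of the 47 genes rose, none fell and 26 did not pass. At an unadjusted p below 0.05, 29 were higher and 1, Nolc1, was lower. Over all named genes tested, with 1 probe set each, 11.6% rose and 6.23% fell, and over all probe sets tested 8.6% rose and 7.4% fell. The rises were modest, from 1.29-fold to 2.44-fold with a median of 1.33-fold, and 7 of the 21 exceeded 1.5-fold, namely Myc, Rrp12, Nhp2, Nip7, Nop58, Fbl and Ebna1bp2. Of the 47 log2 fold changes 43 were above 0, and their median was 0.30, beside 0.00035 over all 10596 named genes tested. On 12 of the 47 genes every p38 array lay above every LacZ array, beside 7.4% of all named genes (5.62% of probe sets), and on none did every p38 array lie below, beside 4.74% (5.43% of probe sets).

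The count of rises depended on single arrays and on scaling, while from 41 to 46 of the log2 fold changes were above 0 in every setting that tested all 47 genes. The count was 8 without p38 4, 9 without p38 2, LacZ 1 or LacZ 3, 10 without LacZ 4, 11 without LacZ 2, 12 without p38 5 and 7 with the signals as deposited. With those signals the median over all tested probe sets was itself 0.11, against -0.03 in the normalized data, and the median of the 47 genes was 0.47. The split of all called probe sets moved with it, to 956 higher and 87 lower with the signals as deposited and 1644 higher and 777 lower with median centring, against 1601 higher and 1378 lower in the quantile-normalized data.

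**Figure D1:**
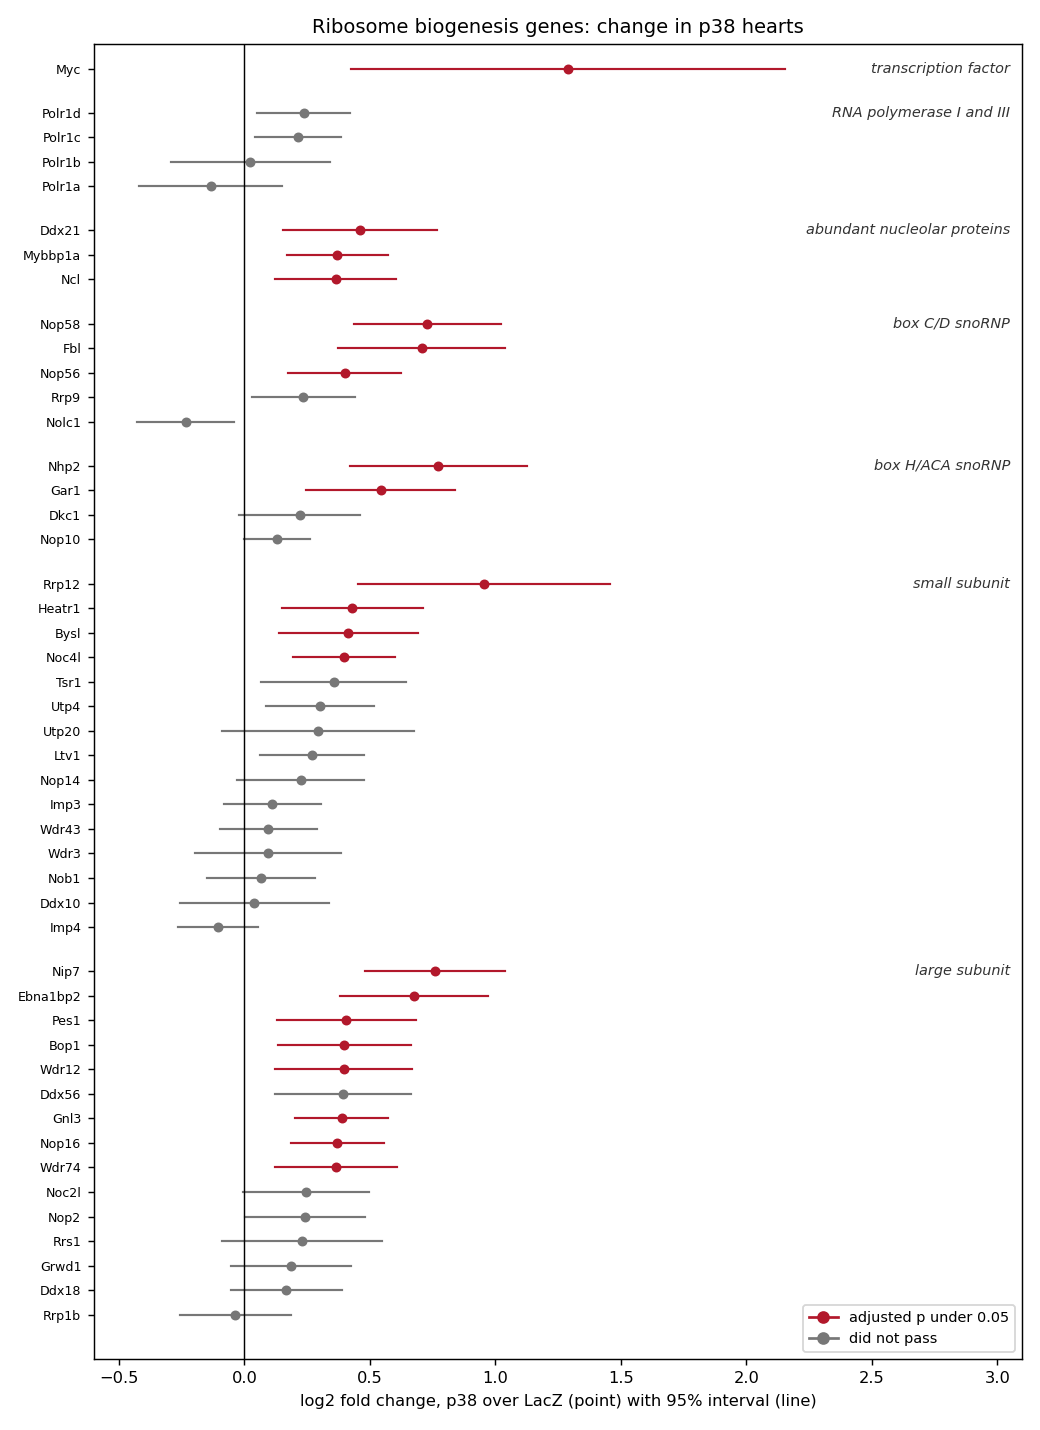
Log2 fold change of each of 47 ribosome biogenesis genes, p38 over LacZ, on the horizontal axis, with its 95% interval, in blocks by role. Red genes passed the test at an adjusted p below 0.05 and grey ones did not. All 21 red genes lie to the right of 0, Myc farthest at 1.29.

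Myc, the transcription factor of the list, had the largest fold change and the widest spread. Its log2 signals in p38 hearts were 6.39, 8.35, 7.33, 8.66 and 8.94 on arrays 1 to 5, against 6.87, 6.20, 6.34, 6.65 and 7.16 in LacZ hearts. The deposited signals, before any normalization, were 56.9, 353.8, 150.7, 433.3 and 587.6 units in p38 hearts and 105.6, 53.5, 55.9, 75.6 and 131.6 units in LacZ hearts. On 4 of the 5 p38 arrays Myc lay above every LacZ array, while p38 1 lay within the LacZ range and below the LacZ mean of 6.64. Myc rose 2.44-fold (log2 fold change 1.29 ± 0.40, adjusted p = 0.0453), a call that was lost in 11 of 24 other settings, including the signals as deposited and the fits that left out p38 2, 4 or 5 or LacZ 1, 2, 3 or 4.

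Of 11 tested partners and antagonists of MYC, 1 rose, Zbtb17, which encodes a zinc finger protein that binds MYC (1.25-fold, log2 fold change 0.32 ± 0.10, adjusted p = 0.0463). The 1 rise was 9.09% of the 11, beside 11.6% of all named genes tested, and the median log2 fold change of the 11 was 0.06. Mxi1, an antagonist of MYC, stood at -0.22 ± 0.11 on the log2 fold scale (adjusted p = 0.158) and Mlx, a dimerisation partner in the MYC network, at 0.26 ± 0.09 (adjusted p = 0.0678).

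MYC binds the E-box, of which CACGTG is the canonical form, so the promoters of the list were searched for it. RefSeq promoter windows on the GRCr8 build, from 250 bases before to 50 after the annotated start, were at hand for 43 of the 47 measured genes and not for Myc, Wdr43, Bop1 and Rrs1. The motif reads the same on both strands. It occurred in 14 of the 43 windows (32.6%), in 19 of 67 windows of other ribosome assembly factors (28.4%) and in 9.68% of the 8849 windows of named genes tested on the arrays, beside 6.42% of all 33469 windows. It occurred in 7 of 19 genes that rose and in 7 of 24 that did not pass. The related form CACGCG, searched on both strands as well, cannot overlap the first. It occurred in 13 of the 43 windows (30.2%) and in 17.2% of those of named genes tested, beside 8.5% of all windows. Here the split ran the other way, with 4 of 19 genes that rose and 9 of 24 that did not pass, and either form occurred in 52.6% of the windows of genes that rose and 54.2% of those that did not pass. A match is a description of the letters and not of a bound site.

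The sites of the 7 genes that rose are shown because these genes combine a match with a measured rise, with the motif in capitals, read along the gene's strand. Positions count from the annotated start, and the motif's first base lies at -156 and -1 in Mybbp1a, 22 in Fbl, 4 in Rrp12, 33 in Bysl, -50 in Pes1, 31 in Ebna1bp2 and -25 in Gnl3. The searched window sets how near the start a site can lie, and genes that did not pass had sites as near, among them Ddx18 at -13, Tsr1 at 21, Utp4 at -25, Nop2 at 39 and Ltv1 at -61.
Mybbp1a, first site, chr10:57555290-57555319, plus strand: gcagtttctacaCACGTGtgcgagcacagg
Mybbp1a, second site, chr10:57555445-57555474, plus strand: gtctttcgagccCACGTGtttggttcagca
Fbl, chr1:92597416-92597445, plus strand: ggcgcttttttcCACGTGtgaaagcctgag
Rrp12, chr1:250655298-250655327, minus strand: gctgagaatacaCACGTGggttctgctgtg
Bysl, chr9:20880361-20880390, plus strand: tagccggcttcaCACGTGtaaactttgtgg
Pes1, chr14:83074284-83074313, plus strand: ccctaagcggggCACGTGcggtaggaagta
Ebna1bp2, chr5:137433552-137433581, plus strand: gcgtcttgctggCACGTGgagtggcagccg
Gnl3, chr16:6219790-6219819, minus strand: agttccagttcgCACGTGgcgcccgagacg

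For Gnl3 and Pes1, whose only CACGTG lies before the start, the 250 bases before it give the wider context.
Gnl3, chr16:6219783-6220032, minus strand: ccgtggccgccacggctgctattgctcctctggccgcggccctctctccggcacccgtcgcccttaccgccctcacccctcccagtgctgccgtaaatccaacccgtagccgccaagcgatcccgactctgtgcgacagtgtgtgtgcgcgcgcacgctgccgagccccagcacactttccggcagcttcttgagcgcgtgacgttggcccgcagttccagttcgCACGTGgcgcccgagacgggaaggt
Pes1, chr14:83074096-83074345, plus strand: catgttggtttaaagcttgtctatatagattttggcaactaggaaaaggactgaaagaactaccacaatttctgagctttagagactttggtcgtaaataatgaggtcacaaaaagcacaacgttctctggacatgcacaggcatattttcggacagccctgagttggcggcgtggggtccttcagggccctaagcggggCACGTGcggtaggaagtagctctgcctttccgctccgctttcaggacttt

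None of the 4 measured subunits of RNA polymerase I, of which Polr1c and Polr1d also serve RNA polymerase III, passed at the chosen probe set, although Polr1c and Polr1d were higher at an unadjusted p below 0.05. Polr1a, which encodes the largest subunit, had log2 signals of 8.53, 8.61, 8.77, 8.51 and 8.12 in p38 hearts, against 8.46, 8.50, 8.68, 8.60 and 8.98 in LacZ hearts. Of its arrays p38 5 lay below all LacZ arrays and LacZ 5 above all p38 arrays, and the rest overlapped. Polr1b, the second-largest subunit, stood at 6.97, 7.43, 7.24, 7.50 and 7.69 in p38 hearts and at 7.08, 7.39, 7.21, 7.37 and 7.67 in LacZ hearts. The 95% interval of the log2 fold change was -0.42 to 0.15 for Polr1a and -0.29 to 0.34 for Polr1b, so changes of the size seen for Fbl or Nop58 lay outside both. The log2 fold changes of Polr1c and Polr1d were 0.21 ± 0.08 and 0.24 ± 0.09 (adjusted p = 0.0791 and 0.0768). The other probe set of Polr1d rose (log2 fold change 0.51 ± 0.09, adjusted p = 0.00818), so the gene's 2 probe sets disagree on the call. Of 15 tested genes of further polymerase subunits and initiation factors, 2 rose, the polymerase I subunits Polr1e (1.42-fold, adjusted p = 0.0326) and Polr1f (1.42-fold, adjusted p = 0.0430). The 2 rises were 13.3% of the 15, beside 11.6% of all named genes tested. None fell (0 lower at an unadjusted p below 0.05), and the median log2 fold change was 0.16.

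Among the abundant nucleolar proteins all 3 that were measured rose, beside 11.6% of all named genes tested. Nucleolin (Ncl), a histone chaperone and RNA-binding protein of the nucleolus, had log2 signals of 11.08, 11.29, 10.89, 11.45 and 11.56 in p38 hearts and of 10.80, 10.84, 10.89, 10.89 and 11.02 in LacZ hearts. On p38 3 it lay within the LacZ range. Ncl rose 1.29-fold (log2 fold change 0.36 ± 0.11, adjusted p = 0.0440), a call lost in 11 of 24 other settings, among them the fits without p38 2, 4 or 5 or LacZ 1, 2, 3 or 4. Mybbp1a, which encodes a nucleolar protein that binds MYB, stood at 9.71, 9.86, 9.59, 9.91 and 9.77 in p38 hearts and at 9.24, 9.46, 9.24, 9.48 and 9.57 in LacZ hearts, with no overlap, and rose 1.29-fold (adjusted p = 0.0217), a call lost without p38 2, p38 4, LacZ 1 or LacZ 3 and with the signals as deposited. Ddx21, an RNA helicase gene, rose 1.38-fold at its brightest probe set (log2 fold change 0.46 ± 0.14, adjusted p = 0.0438). Its other probe set gave -0.17 ± 0.18 as its log2 fold change (adjusted p = 0.542), and with both averaged Ddx21 did not pass (adjusted p = 0.531). The Ddx21 call was lost in 13 of 24 other settings, including the omission of any 1 array but p38 1 or p38 3.

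The box C/D snoRNPs methylate ribosomal RNA, and genes of 3 of their core proteins rose together. Fibrillarin (Fbl), the methyltransferase, had log2 signals of 9.71, 9.999, 9.43, 10.34 and 10.25 in p38 hearts, against 9.21, 9.29, 9.07, 9.18 and 9.45 in LacZ hearts. All p38 arrays but p38 3 lay above all LacZ arrays. The scaffold gene Nop58 stood at 10.10, 10.21, 9.67, 10.53 and 10.36 in p38 hearts and at 9.38, 9.50, 9.30, 9.43 and 9.61 in LacZ hearts, without overlap. Its partner Nop56 stood at 9.58, 9.90, 9.48, 9.98 and 9.90 in p38 hearts and at 9.37, 9.38, 9.28, 9.35 and 9.47 in LacZ hearts, where p38 3 and LacZ 5 nearly met. The log2 fold changes were 0.71 ± 0.15 for Fbl (1.63-fold, adjusted p = 0.0142), 0.73 ± 0.14 for Nop58 (1.66-fold, adjusted p = 0.0093) and 0.40 ± 0.10 for Nop56 (1.32-fold, adjusted p = 0.0247). The calls of Fbl and Nop58 held in all 24 other settings, while that of Nop56 was lost in 9, including the fits without p38 2, 4 or 5 or LacZ 1, 2, 3 or 4. The other probe set of Nop56 gave 0.19 ± 0.18 as its log2 fold change (adjusted p = 0.483), and with both averaged Nop56 did not pass.

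Rrp9, a protein of the snoRNP that guides early cuts of the precursor, gave 0.23 ± 0.10 as its log2 fold change (adjusted p = 0.106). Nolc1, which encodes a chaperone that shuttles snoRNPs to the nucleolus, had the lowest value of the 47 genes, -0.23 ± 0.09 (adjusted p = 0.0865). Its other tested probe set stood at 0.37 ± 0.18 (adjusted p = 0.168), so the probe sets point in opposite directions and neither passed.

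The box H/ACA snoRNPs convert uridine to pseudouridine, and 2 of their 4 core genes rose, beside 11.6% of all named genes tested. Nhp2, an RNA-binding core protein, had log2 signals of 9.53, 9.998, 9.62, 10.37 and 10.40 in p38 hearts, against 9.15, 9.32, 9.01, 9.20 and 9.37 in LacZ hearts. The core gene Gar1 stood at 8.08, 8.51, 8.08, 8.76 and 8.53 in p38 hearts and at 7.93, 7.90, 7.67, 7.74 and 8.01 in LacZ hearts. Neither gene showed an overlap between the groups, and p38 1 and p38 3 lay closest to the LacZ arrays on both. Nhp2 rose 1.71-fold (log2 fold change 0.77 ± 0.16, adjusted p = 0.0132) and Gar1 1.46-fold (0.54 ± 0.14, adjusted p = 0.0219), a call that Gar1 lost without p38 2, p38 4, LacZ 3 or LacZ 4 and with the signals as deposited. Dkc1 (dyskerin), the pseudouridine synthase itself, gave 0.22 ± 0.11 as its log2 fold change (adjusted p = 0.188), and Nop10 gave 0.13 ± 0.06 (adjusted p = 0.160). Their 95% intervals reached 0.46 and 0.26, so a change as large as the estimate for Nhp2 lay outside both.

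**Figure D2:**
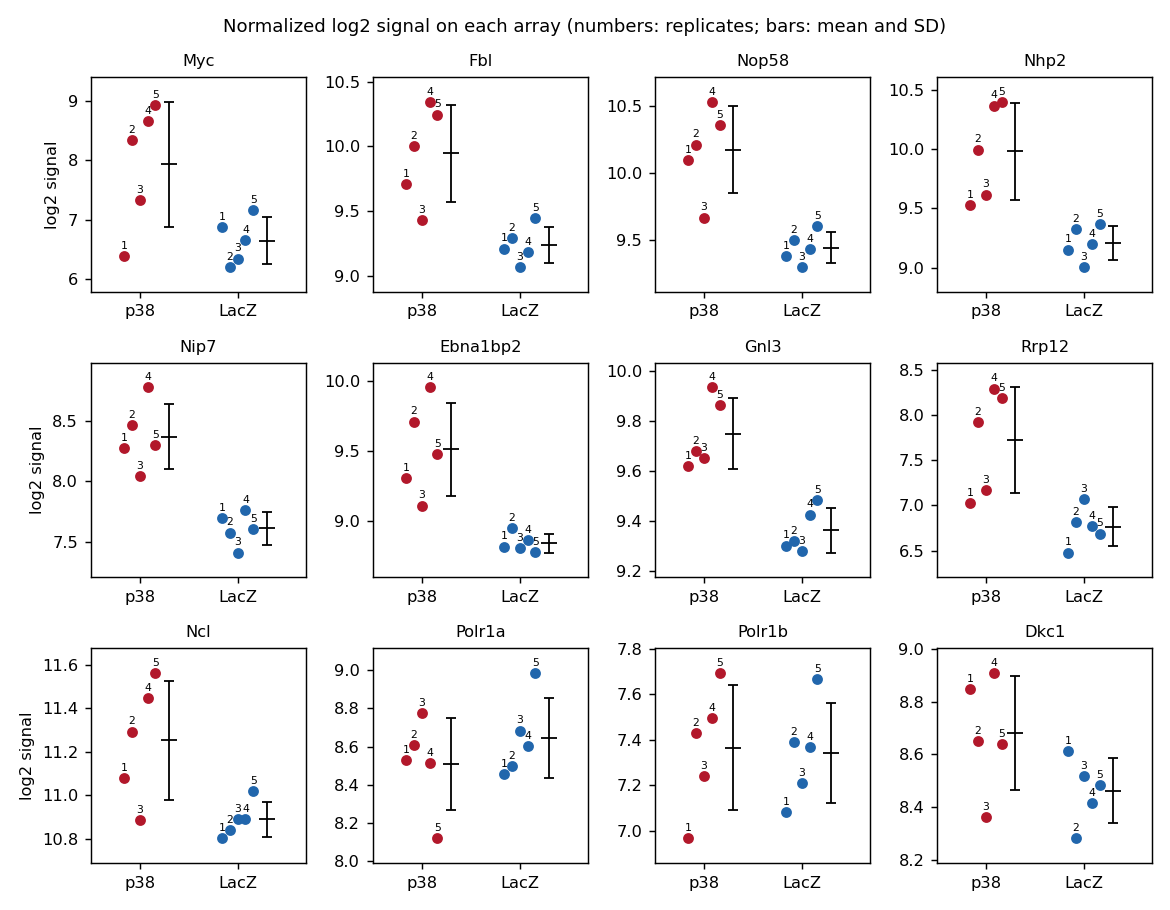
Normalized log2 signal (vertical axis, a scale of its own in each panel) of 12 ribosome biogenesis genes on each array, p38 in red and LacZ in blue, numbered by replicate, with mean and SD at the right of each group. Arrays p38 1 and p38 3 are the lowest p38 arrays for Myc, Fbl, Nhp2 and Rrp12. The groups overlap for Myc, Fbl, Rrp12, Ncl, Polr1a, Polr1b and Dkc1.

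Of 15 genes of small subunit assembly 4 rose (26.7%, beside 11.6% of all named genes tested). Rrp12, whose yeast counterpart acts in maturation and nuclear export of pre-ribosomes, had log2 signals of 7.02, 7.92, 7.17, 8.30 and 8.19 in p38 hearts, against 6.48, 6.82, 7.07, 6.77 and 6.69 in LacZ hearts. Here p38 2, p38 4 and p38 5 stood well above the LacZ arrays, while p38 1 and p38 3 were near LacZ 3. Rrp12 rose 1.94-fold (log2 fold change 0.96 ± 0.23, adjusted p = 0.0193). Its other 2 probe sets had log2 fold changes of 0.49 ± 0.24 and 0.51 ± 0.17 and did not pass (adjusted p = 0.169 and 0.0527). The Rrp12 call was lost without p38 4 or LacZ 1.

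Noc4l, whose yeast counterpart works in small subunit maturation, gave 8.32, 8.27, 8.18, 8.36 and 8.48 in p38 hearts and 7.95, 7.84, 7.76, 8.08 and 7.99 in LacZ hearts, and rose 1.32-fold without overlap (adjusted p = 0.0175). Heatr1, an early processing factor also tied to polymerase I transcription, gave 6.92, 7.21, 6.77, 7.31 and 7.34 in p38 hearts and 6.53, 6.67, 6.80, 6.62 and 6.77 in LacZ hearts. On p38 3 it lay within the LacZ range, and it rose 1.35-fold (adjusted p = 0.0418). Bysl (bystin) rose 1.33-fold (log2 fold change 0.41 ± 0.13, adjusted p = 0.0455). The call was lost in 12 of 23 other settings for Heatr1 and in 12 of 24 for Bysl, for both including the omission of any 1 array but p38 1 or p38 3. The other 11 genes did not pass. Among these, Tsr1 gave 0.36 ± 0.13 as its log2 fold change (adjusted p = 0.0859), Utp4 gave 0.30 ± 0.10 (adjusted p = 0.0564) and Ltv1 gave 0.27 ± 0.10 (adjusted p = 0.0715), followed by Utp20, Nop14, Imp3, Wdr43, Wdr3, Nob1 and Ddx10 between 0.29 and 0.04. Imp4, of the same snoRNP-associated complex as Imp3, gave -0.10 ± 0.07 as its log2 fold change (adjusted p = 0.343). The other probe set of Imp4 pointed the opposite way, at 0.13 ± 0.13 (adjusted p = 0.486).

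Of 15 genes of large subunit assembly 8 rose (53.3%, beside 11.6% of all named genes tested). Nip7, in yeast a factor of large subunit biogenesis, had the smallest p of the 47 genes, with log2 signals of 8.27, 8.46, 8.04, 8.77 and 8.30 in p38 hearts, against 7.69, 7.57, 7.41, 7.76 and 7.61 in LacZ hearts. Ebna1bp2, the counterpart of another yeast assembly factor, stood at 9.31, 9.71, 9.11, 9.96 and 9.48 in p38 hearts and at 8.81, 8.94, 8.80, 8.86 and 8.77 in LacZ hearts. For both genes every p38 array lay above every LacZ array. Nip7 rose 1.69-fold (log2 fold change 0.76 ± 0.13, adjusted p = 0.00787) and Ebna1bp2 1.60-fold (0.67 ± 0.14, adjusted p = 0.0117).

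Gnl3 (nucleostemin), a nucleolar GTP-binding protein gene known from proliferating and stem cells, stood at 9.62, 9.68, 9.65, 9.93 and 9.86 in p38 hearts and at 9.30, 9.32, 9.28, 9.42 and 9.48 in LacZ hearts. Nop16 stood at 9.84, 9.94, 9.62, 10.02 and 9.90 in p38 hearts and at 9.48, 9.50, 9.40, 9.56 and 9.53 in LacZ hearts. The groups did not overlap on either gene, and the spread within them was small. Gnl3 rose 1.31-fold (log2 fold change 0.39 ± 0.09, adjusted p = 0.0152) and Nop16 1.29-fold (0.37 ± 0.09, adjusted p = 0.0163).

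Bop1, Pes1 and Wdr12 encode the members of a complex, named PeBoW after them, that is needed to process the large subunit RNA, and all 3 rose by similar amounts. Bop1 gave 8.27, 8.63, 8.19, 8.73 and 8.71 in p38 hearts and 8.27, 8.17, 7.95, 8.08 and 8.06 in LacZ hearts, so p38 1 and p38 3 reached no higher than LacZ 1. The fold changes were 1.32 for Bop1 (log2 fold change 0.40 ± 0.12), 1.33 for Pes1 (0.41 ± 0.13) and 1.32 for Wdr12 (0.40 ± 0.13). Their adjusted p-values of 0.0432, 0.0480 and 0.0492 lay near the threshold, and each call was lost in 12 or 13 of the 24 other settings, including the fits without p38 2, 4 or 5 or LacZ 1, 2, 3 or 4. Wdr74 rose 1.29-fold (adjusted p = 0.0433), a call also lost in 12 of 24, including the fits without p38 2, p38 4 or any 1 LacZ array. Ddx56, an RNA helicase gene, missed the threshold narrowly (log2 fold change 0.39 ± 0.13, adjusted p = 0.05003) although its groups did not overlap. Noc2l, Nop2, Rrs1, Grwd1, Ddx18 and Rrp1b did not pass either, with log2 fold changes from 0.25 to -0.04. The second, dimmer probe set of Ddx18 rose (log2 fold change 0.66 ± 0.20, adjusted p = 0.0410).

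**Figure D3:**
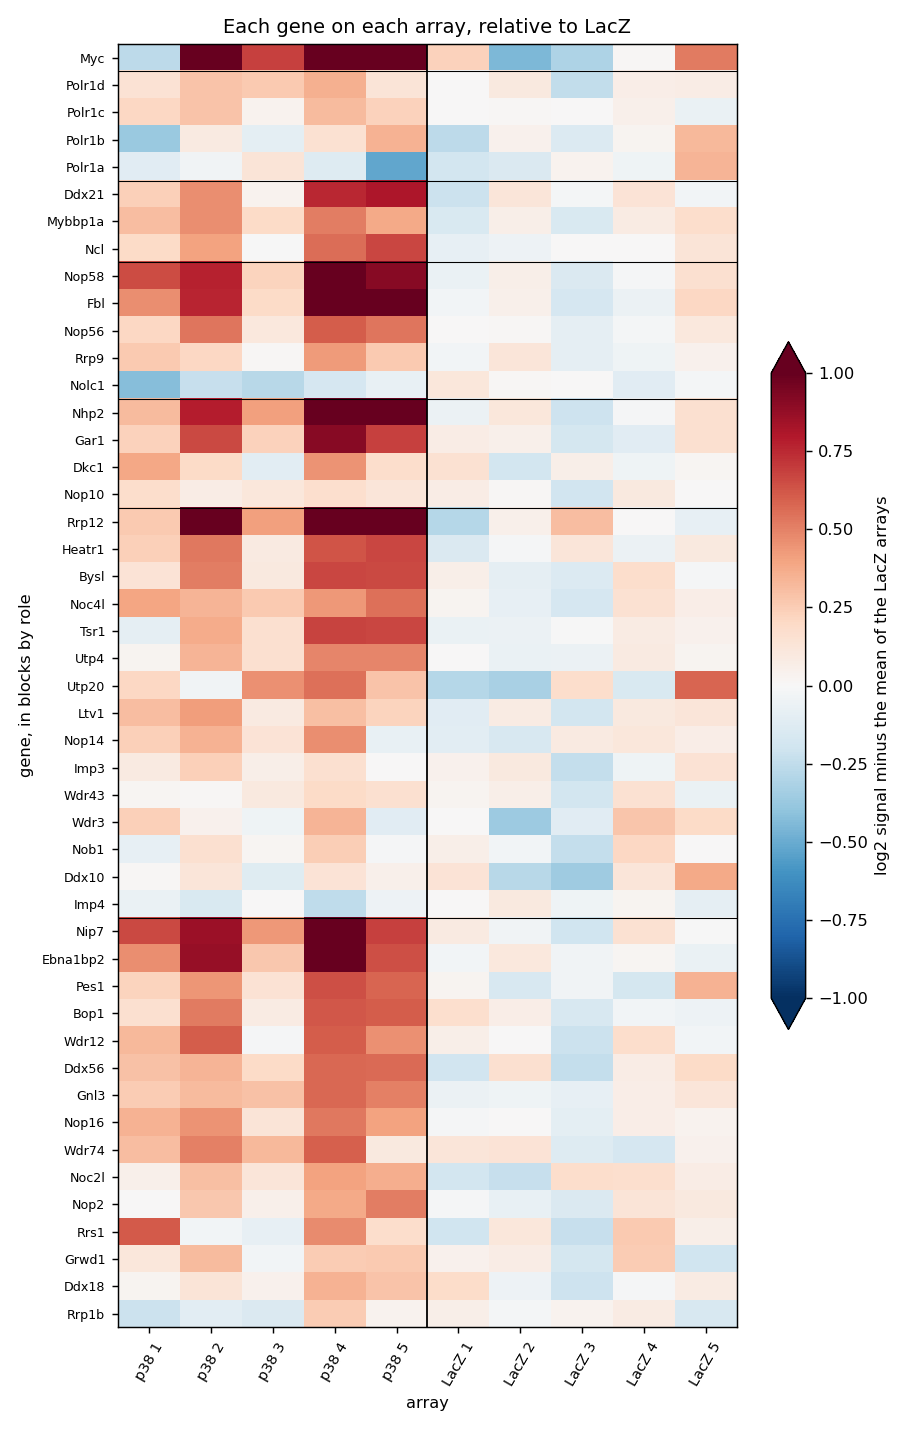
Log2 signal of each of 47 genes (rows, in blocks by role) on each of 10 arrays (columns) minus the gene's mean over the LacZ arrays. Colours stop at 1 and -1. The p38 4 and p38 5 columns are the reddest, p38 1 and p38 3 the palest of the p38 columns, and the Myc row is pale blue on p38 1.

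The p38 arrays differed among themselves in a way that most genes shared. Averaged over the 47 genes, the log2 signal relative to the LacZ mean was 0.17, 0.37, 0.12, 0.54 and 0.43 on p38 1 to 5, against -0.02, -0.02, -0.10, 0.05 and 0.09 on LacZ 1 to 5. Array p38 4 was the highest p38 array on 30 of the 47 genes, and p38 3 the lowest on 24 and p38 1 on 13. The SD between arrays was larger in p38 than in LacZ on 32 of the 47 genes, beside 65.8% of all tested probe sets. Of the 21 genes that rose, 16 lay above all LacZ arrays on p38 1, where Myc did not, 21 on p38 2, 13 on p38 3, 21 on p38 4 and 20 on p38 5. These same arrays had chosen the 21 genes, so the counts are a description.

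The fluidics status written in the array files split the arrays as well, with 2 p38 and 4 LacZ arrays marked Completed and 3 p38 arrays (1, 2 and 3) and 1 LacZ array (5) marked Started. Within Completed arrays the median log2 difference of the 47 genes was 0.47 (44 positive), and within Started arrays it was 0.15 (38 positive), beside medians over all tested probe sets of -0.07 and 0.00069. In a fit with the status as a block 22 genes rose, 19 of the 21 among them. There Pes1 and Wdr74 did not pass, while Utp4, Tsr1 and Ddx56 did. With a block for the fluidics module 14 genes rose, and Ncl, Ddx21, Heatr1, Bysl, Bop1, Wdr12 and Wdr74 did not pass.

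Other genes of the pathway were counted from lists. Of 71 tested further ribosome assembly factors 19 rose, 1 fell and 51 did not pass, with a median log2 fold change of 0.26. The share that rose was 26.8%, beside 11.6% of all named genes tested. The rises were led by Rpf2 (1.65-fold, adjusted p = 0.00858) and Brix1 (1.49-fold, adjusted p = 0.0092), both of large subunit assembly, Fcf1 (1.29-fold, adjusted p = 0.00993) of small subunit processing, and Mrto4 (1.63-fold, adjusted p = 0.0118), which acts in large subunit assembly. The gene that fell was Gnl3l, a relative of Gnl3 (log2 fold change -0.23, adjusted p = 0.0380), named after its value was seen. The count was 24 without p38 1, 27 without p38 3 and from 7 to 12 when any 1 of the other 8 arrays was left out.

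Cytosolic ribosomal proteins are the cargo of this pathway, and 27 of 39 tested genes rose, none fell (0 lower at an unadjusted p below 0.05) and 12 did not pass. Only 42 of the 79 listed genes had a probe set that carried the symbol alone. The changes were small, with a median log2 fold change of 0.23, and on 20 of the 39 genes every p38 array lay above every LacZ array. Over all named genes tested 11.6% rose, and on 7.4% every p38 array lay above every LacZ array. Rpl35a rose 1.27-fold (log2 fold change 0.34 ± 0.05, adjusted p = 0.00732), Rpl13a 1.29-fold (0.37 ± 0.06, adjusted p = 0.00748) and Rpl18 1.34-fold (0.43 ± 0.08, adjusted p = 0.00894). With the signals as deposited 9 of the 39 rose, and 10 did in a fit without a trend of variance with intensity. Median centring gave 15 rises and no filter on dim probe sets 16. The count was 15 without LacZ 3, 16 without p38 4, and 17 without p38 2, LacZ 1 or LacZ 4.

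Of 11 tested genes of the RNA exosome, the nuclease that trims precursor RNA, and its cofactors, 1 rose, the cofactor gene Mphosph6 (1.32-fold, log2 fold change 0.40 ± 0.08, adjusted p = 0.0119). Among 13 genes of nucleotide synthesis Nme1, a nucleoside diphosphate kinase gene, rose 1.83-fold (0.87 ± 0.17, adjusted p = 0.0110) and Umps, of pyrimidine synthesis, 1.31-fold (adjusted p = 0.0207). The shares that rose were 9.09% for the exosome and 15.4% for nucleotide synthesis, beside 11.6% of all named genes tested. List medians on the log2 fold scale were 0.17 for the exosome and -0.000083 for nucleotide synthesis.

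**Figure D4:**
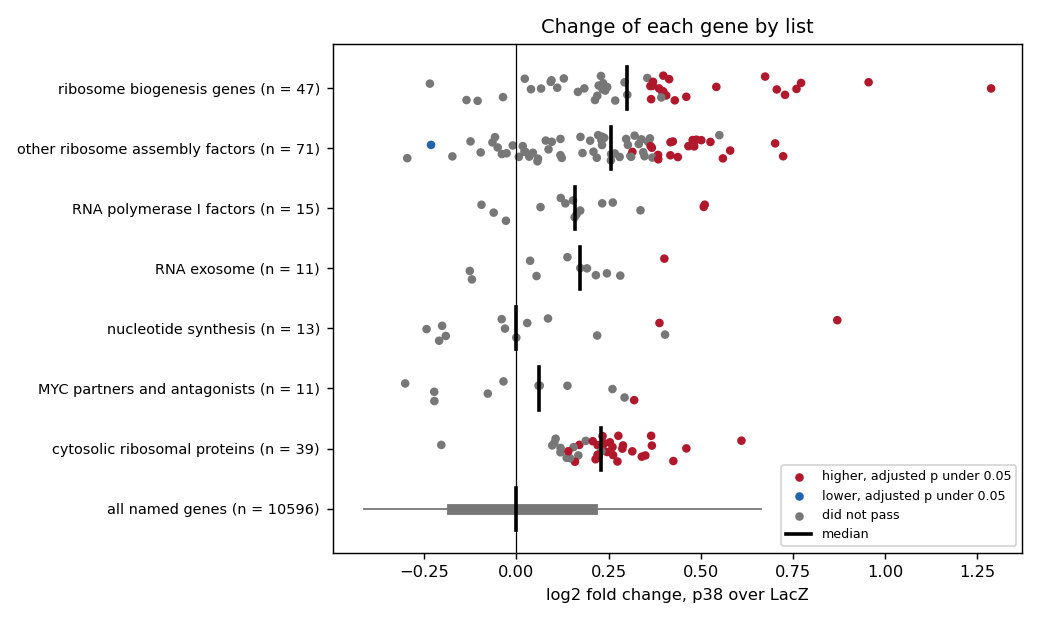
Log2 fold change, p38 over LacZ, of each tested gene of 7 lists (points, red where the gene rose, blue where it fell, grey where it did not pass), with list medians as black bars. The lowest row gives all 10596 named genes as a line from the 5th to the 95th percentile and a thick bar over the middle 50%. Medians lie at 0.30 for the ribosome biogenesis genes, 0.26 for other assembly factors and 0.23 for cytosolic ribosomal proteins.

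Markers of proliferation and of macrophages moved with these genes. Of 21 tested mitosis genes 18 rose (85.7%, beside 11.6% of all named genes tested) and 3 did not pass. Summed signals of these lists are normalized values put back on the linear scale. Over all 24 measured mitosis genes, 3 of them untested, they were 2392 to 6108 on p38 and 1178 to 2592 on LacZ arrays. Of 18 macrophage markers 14 rose (77.8%) and 4 did not pass (8 rose without p38 4 or LacZ 3, 9 without p38 2 or LacZ 1). Their summed signals were 22191 to 39441 on p38 arrays and 18873 to 23889 on LacZ arrays. Relative to the LacZ mean, the mitosis list averaged 0.61, 1.26, 0.80, 1.69 and 1.78 on p38 1 to 5, and the macrophage list 0.16, 0.79, 0.60, 1.19 and 1.18. Like the ribosome biogenesis genes, both lists were highest on p38 4 and p38 5.

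On LacZ 5 the mitosis list stood at 0.69 and the macrophage list at 0.36, against 0.61 and 0.16 on p38 1. The 47 genes averaged 0.09 on LacZ 5 and 0.17 on p38 1. The 26 of them that did not pass averaged 0.087 on LacZ 5 and 0.079 on p38 1. The 21 that rose, chosen on these same arrays, averaged 0.098 on LacZ 5 and 0.29 on p38 1. T and NK cell markers gave 1 rise among 8 tested, the fibroblast list 2 among 12 and endothelial markers 2 falls among 11. Those shares were 12.5%, 16.7% and 18.2%, beside rises of 11.6% and falls of 6.23% over all named genes tested. The part of these cell types in the rise of the ribosome biogenesis genes was not tested.

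**Figure D5:**
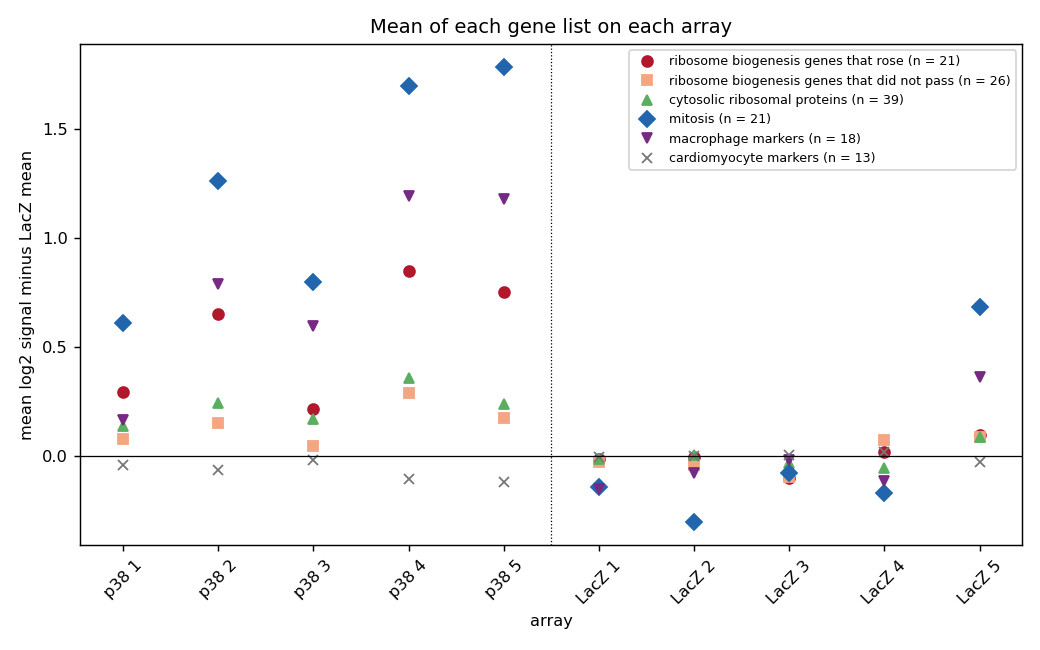
Mean log2 signal of 6 gene lists on each array relative to the mean of the LacZ arrays (vertical axis), p38 arrays at the left and LacZ arrays at the right. The mitosis and macrophage lists are raised on LacZ 5, at 0.69 and 0.36. The ribosome biogenesis genes that rose, chosen on these same arrays, stand at 0.10 there and between 0.22 and 0.85 on the p38 arrays. Those that did not pass stand at 0.09 on LacZ 5 and between 0.05 and 0.29 on the p38 arrays.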

How the data were processed

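Left ventricular RNA was measured on Affymetrix rat expression arrays, 5 p38 and 5 LacZ, grouped by sample title. The authors deposited an intensity for each probe set on each array, on a linear scale. The submitters' processing notes name GCOS 1.2, and the sources used here do not say whether arrays were scaled. Array medians ran from 60.3 to 88.05 units, so log2(signal + 16), a scale that understates changes of dim probe sets, was quantile normalized.

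Of 31099 probe sets, 57 controls and the dimmest 40% of the rest were left out, and 18625 were tested with limma 3.58.1 in R 4.3.3 (intensity trend, two-sided, Benjamini-Hochberg over all of them, threshold 0.05). Arrays were not paired by replicate number. Probe sets were named from the platform annotation. Promoters came from RefSeq (GRCr8).

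Members and lists were chosen with earlier results of these data known. Values on every array are given for Myc, Ncl, Fbl, Polr1a, Polr1b and the 14 members with the smallest p, and list genes named are those with the smallest p. The number of arrays limits precision, with a median 95% interval of 0.28 to either side of a log2 fold change. Alternatives comprised pseudocounts, scalings, filters, variance models, array weights, blocks, omission of each array and averaging of probe sets.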

Additional observations from a re-analysis of the deposited data

Results flagged for a closer look

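Polr1d in LacZ hearts had 1 array far from the other 4, where LacZ 3 stood at a log2 signal of 9.65 and the others between 9.91 and 10.01. This was the only value of its kind among 96 sets of 5 arrays examined, of which chance alone gives about 1 in 20.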

How the results depend on the processing

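In each of 24 other settings no more than 1 of the genes fell, and the median log2 fold change of the genes stayed above 0. The number of genes that rose, 21 in the setting reported, was 7 with the signals as deposited (median 0.47), 12 with no filter on dim probe sets, and from 8 to 26 with 1 array left out, highest without p38 3. In a fit without a trend of variance with intensity 15 genes rose. With array weights 29 rose, the most in any setting, and 1 gene fell, Nolc1. Relative to the median of all tested probe sets, the median of the genes was 0.36 with the signals as deposited, against 0.33 in the setting reported. Fbl, Nop58, Nhp2, Nip7, Ebna1bp2 and Nop16 rose in all 24 settings, Gnl3 and Noc4l in all but the signals as deposited, and Rrp12 in all but 2. Over all probe sets, rises numbered 693 to 2316 and falls 536 to 2149 with 1 array left out. Macrophage rises ranged from 8 to 16, and mitosis rises from 8, where fewer of its genes were tested, to 21, and these list counts under other settings were added after seeing the data. The cause of these shifts was not tested. Replicate numbers are shared between groups. Deviations of same-numbered arrays correlated from -0.13 to 0.28 and those of differently numbered ones from -0.26 to 0.27, which cannot settle whether arrays were paired. With the replicate block 20 genes rose, Heatr1 and Wdr74 no longer among them. Background was not measured here, so how far dim probe sets stand above it is unknown, such as the second of Ddx18 at 6.73 in p38 and 6.07 in LacZ hearts, just above the brightness limit of 5.80.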
